A study of Rattus norvegicus with 9 samples.

Results

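The genes described here act at the cell surface where clot formation meets clot breakdown. They are the plasminogen activators Plat and Plau, the urokinase receptor Plaur, the protease inhibitor Serpine2, the thrombin-binding receptors Thbd and F2r, tissue factor (F3) and its inhibitor Tfpi. They were taken by symbol from a table of 26407 rows, each of the 8 symbols had 1 row, and 7 of the 8 were among the 11376 genes that passed a mean of 1 FPKM over the 9 libraries. FPKM counts fragments per kilobase of transcript, scaled to library size, so levels are given per transcript length.

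The libraries came from S31, wild-type primary vascular smooth muscle cells that had been isolated from small vessels of the heart of Wistar Kyoto rats, all male. All cells were kept without serum for 48 h, in a medium holding lactalbumin hydrolysate. There were 3 libraries in each of 3 sets, called here by their columns, IGF-NS, PDGF-NS and the controls LH-NS, which received fresh serum-free medium with no growth factor and were taken at 24 h. The columns and the sample records do not match. The IGF-NS columns are named by the records titled PDGF-BB, recombinant rat PDGF-BB at 25 ng/ml taken at 48 h, and the PDGF-NS columns are named by the records titled IGF-1, recombinant human IGF-1 at 25 ng/ml taken at 24 h. Which growth factor a set received is therefore not settled here, and for IGF-NS against LH-NS, and likewise for PDGF-NS against IGF-NS, the growth factor and the harvest time given by the records cannot be told apart. No source says whether the libraries of a set are separate cultures; p-values thus reflect how far these libraries vary, and that variation may be technical only.

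Plasminogen is a circulating zymogen that tissue-type and urokinase-type plasminogen activators cleave to plasmin, the protease that dissolves fibrin and also cuts matrix proteins. Inhibitors of the serpin family hold the activators in check, and the urokinase receptor concentrates urokinase at the cell surface. On the clotting side, tissue factor exposed on smooth muscle starts coagulation when a vessel is opened. The thrombin formed can signal to the cell through its receptor F2r, or be captured by thrombomodulin (Thbd), which turns thrombin into an activator of the anticoagulant protein C.

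Levels in LH-NS were led by F2r, with a mean of 395.8 ± 49.0 FPKM, followed by Serpine2 at 131 ± 18.5 FPKM (SD, n = 3 each, here and below). F3 at 65.2 ± 39.6 FPKM and Plaur at 51.1 ± 5.41 FPKM came next and overlapped between libraries. Plat stood at 31.8 ± 3.56 FPKM, and Thbd at 15.9 ± 8.99 FPKM overlapped Tfpi at 12.3 ± 6.95 FPKM. The order in PDGF-NS was different at the top and the bottom. There Serpine2 led at 605 ± 68.4 FPKM, above 98.5% of tested genes, Plat at 140.3 ± 11.4 FPKM overlapped F2r at 128 ± 15.4 FPKM, and Thbd at 3.52 ± 2.18 FPKM came below Tfpi. In IGF-NS F2r and Serpine2 were again the top pair, and each neighbour from Plat down through F3, Thbd and Plaur to Tfpi overlapped the next. Plau was under 1 FPKM in every library.

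**Figure D1:**
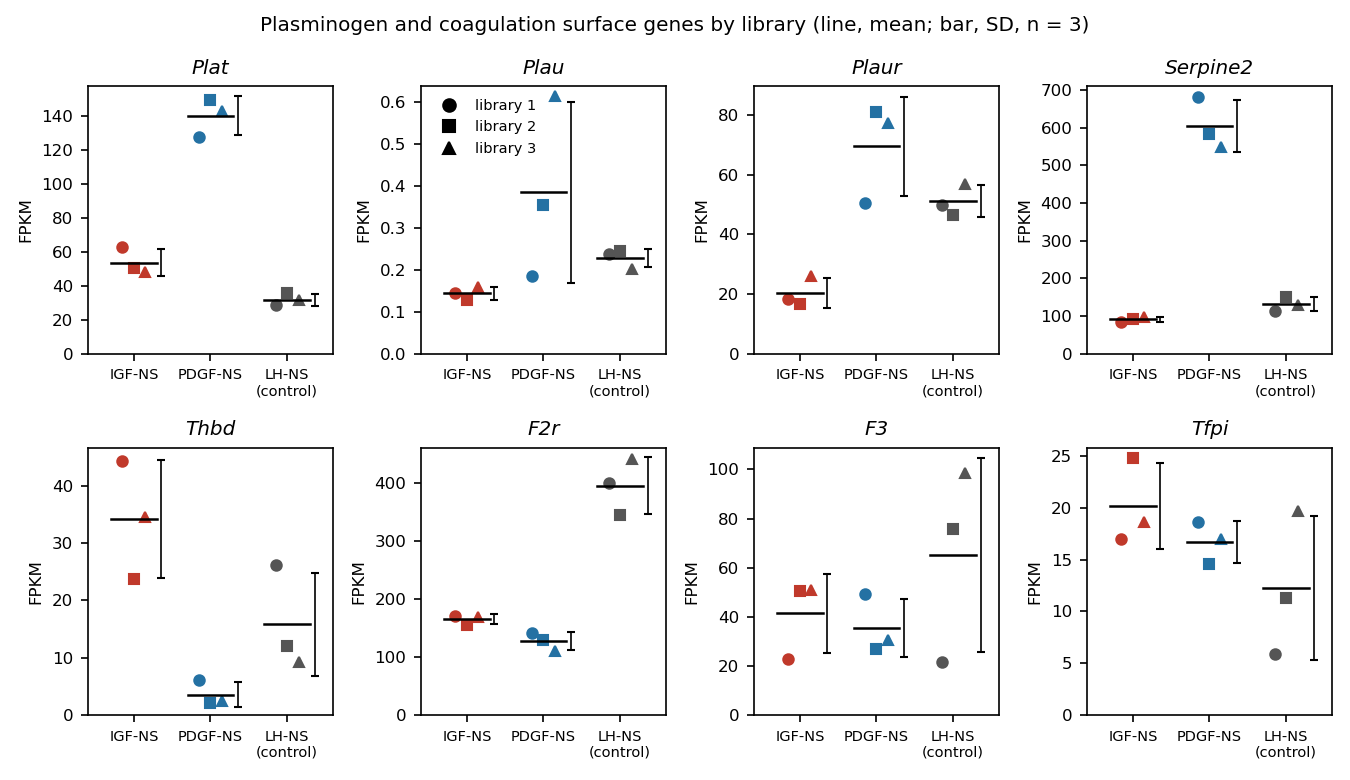
FPKM of the 8 genes in each library, 1 panel a gene and each with its own axis from 0, with IGF-NS and PDGF-NS left of the control set LH-NS; the line is the mean and the bar the SD of 3 libraries. Serpine2 and Plat are highest in PDGF-NS, F2r is highest in LH-NS, and F3 and Tfpi spread most in LH-NS.

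Changes were tested with limma on log2(FPKM + 1), all 9 libraries in one fit, and a gene was called at a Benjamini-Hochberg adjusted p under 0.05 over all tested genes. On this scale the change of a gene with a low level is understated. In IGF-NS against LH-NS, 1 of the 7 tested members (Plat) was called higher and 3 (Plaur, Serpine2 and F2r) lower, where 17.4% of all tested genes were called higher and 7.48% lower. In PDGF-NS against LH-NS, 2 (Plat and Serpine2) were called higher and 2 (Thbd and F2r) lower, against 20.7% and 10.2% of all tested genes. In PDGF-NS against IGF-NS, 3 (Plat, Plaur and Serpine2) were called higher and 1 (Thbd) lower, against 8.33% and 7.55%. The members' median absolute log2 change was 0.79, 1.63 and 1.38 in these 3 comparisons in that order, and that of all tested genes was 0.31, 0.35 and 0.25. The median signed change of the members was -0.47, 0.41 and -0.17, and that of all tested genes 0.15, 0.13 and -0.02. The 2 comparisons against LH-NS share their control libraries. The members were chosen with earlier results of these data known, so these counts and medians are a description and no independent support.

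The split of calls over all genes depended on scaling. Of the genes called in IGF-NS against LH-NS, 69.9% were higher, and after median ratio scaling 48%, after quantile normalization 50.9%. Of those called in PDGF-NS against LH-NS, 66.9% were higher, and 50.2%, 51.2% and 49.1% after scaling to one common sum, median ratio scaling and quantile normalization. In PDGF-NS against IGF-NS the share was 52.5%, and 33.2% after scaling to one common sum. Each member called in a comparison kept its direction and its call under these 3 scalings.

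**Figure D2:**
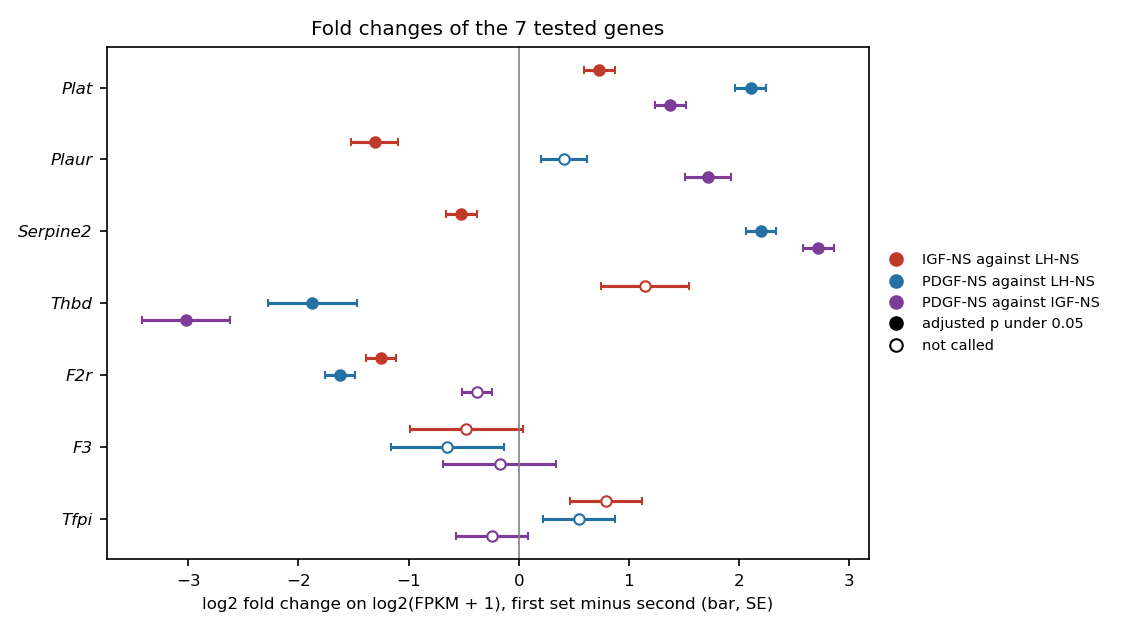
Log2 fold changes on the log2(FPKM + 1) scale of the 7 tested genes in the 3 comparisons, first-named set minus second, with SE bars; filled points have an adjusted p under 0.05. Plaur, Serpine2 and Thbd lie on opposite sides of 0 in the comparisons of IGF-NS and PDGF-NS with LH-NS, and F2r lies below 0 in both.

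The labelled cell type was checked by markers. Of 8 smooth muscle markers all had a signal in every set, and their summed level lay between 647 and 687 FPKM in IGF-NS and between 419 and 455 FPKM in PDGF-NS, against 2605 to 3723 FPKM in LH-NS; of the 7 tested, 5 were called lower in IGF-NS and 7 in PDGF-NS than in LH-NS. Myh11, the smooth muscle myosin heavy chain, lay between 0.305 and 0.478 FPKM in IGF-NS and between 0.572 and 0.702 FPKM in PDGF-NS, against 1.31 to 2.60 FPKM in LH-NS. Fibroblast markers summed to between 6421 and 7670 FPKM in IGF-NS and between 3323 and 4293 FPKM in PDGF-NS, against 3391 to 4800 FPKM in LH-NS, sums that Col1a1 weighs on; 4 of the 6 were called higher than in LH-NS in each set (Pdgfra, Dcn and Lum in both, Col3a1 in IGF-NS and Pi16 in PDGF-NS) and the other two were not called. The part of these shifts in the members' changes was not tested. In bulk RNA, fewer cells of a type and less RNA per cell cannot be told apart. Library 1 of LH-NS stood farthest from its set, with 3.55% of tested genes more than 1 log2 unit from the mean of the other two, where the other 8 libraries had 0.976% to 2.69%.

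Promoter sequence is shown for 3 members that were all called lower in IGF-NS than in LH-NS and that differed in PDGF-NS, where F2r was called lower, Serpine2 higher and Plaur was not called. Each run is the 250 bases before the RefSeq gene start on the gene's own strand, 5′ to 3′, build GRCr8; capitals mark matches to the AP-1 letters TGANTCA and the GC box letters GGGCGG, searched on both strands. Plaur is from chr1:89181113-89181362, plus strand, F2r from chr2:28620580-28620829, minus strand, and Serpine2 from chr9:88637203-88637452, minus strand.
Plaur: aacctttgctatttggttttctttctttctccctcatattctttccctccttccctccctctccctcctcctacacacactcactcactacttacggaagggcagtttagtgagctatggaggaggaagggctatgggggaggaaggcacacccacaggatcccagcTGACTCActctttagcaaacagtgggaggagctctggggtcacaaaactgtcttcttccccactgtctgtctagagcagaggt
F2r: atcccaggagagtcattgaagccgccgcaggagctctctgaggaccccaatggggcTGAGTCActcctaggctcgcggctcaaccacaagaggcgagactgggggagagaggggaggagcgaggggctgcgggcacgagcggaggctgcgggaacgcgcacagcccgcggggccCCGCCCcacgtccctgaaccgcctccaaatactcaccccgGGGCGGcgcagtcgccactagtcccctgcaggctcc
Serpine2: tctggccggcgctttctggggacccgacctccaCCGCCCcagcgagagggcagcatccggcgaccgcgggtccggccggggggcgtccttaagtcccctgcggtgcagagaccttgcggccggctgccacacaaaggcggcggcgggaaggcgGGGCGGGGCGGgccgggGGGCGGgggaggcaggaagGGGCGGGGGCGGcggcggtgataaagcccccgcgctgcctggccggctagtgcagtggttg
Plaur held an AP-1 match that begins 83 bases before the start, and F2r one that begins 194 bases before it. F2r also held 2 GC boxes and Serpine2 held 6, of which those beginning 97 and 92 bases before the start share a base. Over the same windows extended by 50 bases past the start, 7.33% of the 33469 RefSeq rat windows held the AP-1 letters and 33.1% the GC box. Plau held 3 GC boxes and no AP-1 match, and of the 2 starts listed for Tfpi one held a GC box and a TEAD match (GGAATG, in 14.2% of windows) and the other neither. The cyclic AMP element TGACGTCA (1.83% of windows) and the TATA letters TATAAA (14.2%) were in none of these 6 windows. A match describes letters and is not a binding site.

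Plat (ENSRNOG00000019018) encodes tissue-type plasminogen activator, the activator best known for working on fibrin. It had 62.8, 50.2 and 47.9 FPKM in IGF-NS and 128, 149.9 and 143 FPKM in PDGF-NS, against 28.6, 35.6 and 31.3 FPKM in LH-NS. The 3 sets did not overlap, with PDGF-NS at the top and LH-NS at the bottom. Plat rose 4.41-fold in PDGF-NS over LH-NS by the means (log2 change 2.11 ± 0.14 SE, adjusted p = 8e-06) and 1.69-fold in IGF-NS over LH-NS (0.73 ± 0.14, adjusted p = 0.0051). It was also higher in PDGF-NS than in IGF-NS, by 1.38 ± 0.14 (adjusted p = 0.00016). Every one of these calls held when any single library was left out.

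Plau (ENSRNOG00000010516) encodes urokinase, the activator that binds Plaur. It had 0.145, 0.127 and 0.158 FPKM in IGF-NS and 0.185, 0.354 and 0.613 FPKM in PDGF-NS, against 0.236, 0.244 and 0.202 FPKM in LH-NS. All 9 values were under the limit of 1 FPKM, so Plau was not tested with the others. In a fit with no such limit, over 16202 genes, its log2 changes were -0.10, 0.16 and 0.26 in IGF-NS against LH-NS, PDGF-NS against LH-NS and PDGF-NS against IGF-NS, with adjusted p of 0.55, 0.3 and 0.14. The ratio of Plat to Plau FPKM within a library lay between 304 and 435 in IGF-NS and between 234 and 690.3 in PDGF-NS, against 121 to 155 in LH-NS.

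Plaur (ENSRNOG00000037931), the receptor that anchors urokinase in the membrane, had 18.3, 16.7 and 26.1 FPKM in IGF-NS and 50.5, 81.1 and 77.3 FPKM in PDGF-NS, against 50.04, 46.4 and 57.0 FPKM in LH-NS. All IGF-NS libraries lay below all others, and library 1 of PDGF-NS lay among the LH-NS libraries. Plaur fell 2.51-fold in IGF-NS against LH-NS (log2 change -1.31 ± 0.21, adjusted p = 0.0021). In PDGF-NS its log2 change of 0.41 ± 0.21 was not called (adjusted p = 0.16), and without library 1 of PDGF-NS it was 0.63 and called (adjusted p = 0.043). It was 3.42-fold higher in PDGF-NS than in IGF-NS (1.72 ± 0.21, adjusted p = 0.00048). Summed monocyte and macrophage markers were 43.9 to 89.5 FPKM in PDGF-NS. The sums were 23.0 to 31.2 FPKM in IGF-NS, against 17.8 to 27.0 FPKM in LH-NS. Most of each sum was Cd14. Ptprc and Fcgr1a were listed at 0 in all libraries, and Csf1r, Itgam and Lyz2 were under 1 FPKM in all. Cd14 and Cd68 were the 2 of 8 rows tested, and both were called higher in PDGF-NS than in either other set. Cd68 had 9.37, 1.39 and 2.13 FPKM in PDGF-NS and was under 1 FPKM in every other library. It thus passed the limit of 1 FPKM only through PDGF-NS. The part of these markers in the Plaur values was not tested.

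Serpine2 (ENSRNOG00000015461) encodes protease nexin 1, a serpin that inhibits thrombin, urokinase and tissue-type plasminogen activator at the cell surface. It had 84.0, 90.7 and 97.3 FPKM in IGF-NS and 682, 584 and 549.9 FPKM in PDGF-NS, against 114, 151 and 128 FPKM in LH-NS. The sets did not overlap, with PDGF-NS far above both others. Serpine2 rose 4.61-fold in PDGF-NS over LH-NS (log2 change 2.20 ± 0.14, adjusted p = 6.2e-06) and was 6.67-fold higher in PDGF-NS than in IGF-NS (2.72 ± 0.14, adjusted p = 3.4e-06). In IGF-NS it fell by 0.52 ± 0.14 on the log2 scale against LH-NS (adjusted p = 0.023). That last call was lost without library 2 of LH-NS (-0.42, adjusted p = 0.081), library 3 of LH-NS (-0.53, adjusted p = 0.053), library 1 of IGF-NS (-0.47, adjusted p = 0.089) or library 2 of IGF-NS (-0.52, adjusted p = 0.056).

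F2r (ENSRNOG00000048043) encodes the main thrombin receptor, which thrombin activates by cutting its extracellular end. It had 171, 156 and 168 FPKM in IGF-NS and 142, 130.2 and 111 FPKM in PDGF-NS, against 400.4, 345 and 442 FPKM in LH-NS. Every library of IGF-NS and PDGF-NS lay below every LH-NS library. F2r fell 2.40-fold in IGF-NS (log2 change -1.25 ± 0.14, adjusted p = 0.00026) and 3.10-fold in PDGF-NS (-1.63 ± 0.14, adjusted p = 2.5e-05), both against LH-NS. PDGF-NS was below IGF-NS in every library, with a log2 difference of -0.38 ± 0.14 that was not called (adjusted p = 0.093) and was called after scaling to one common sum (-0.51, adjusted p = 0.036). Even after these falls F2r remained above 94.7% of tested genes in IGF-NS and 92.8% in PDGF-NS, against 97.9% in LH-NS.

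Thbd (ENSRNOG00000004687) had 44.4, 23.7 and 34.6 FPKM in IGF-NS and 6.03, 2.13 and 2.39 FPKM in PDGF-NS, against 26.1, 12.1 and 9.32 FPKM in LH-NS. PDGF-NS lay below both other sets in every library, while library 1 of LH-NS reached into the IGF-NS range. Thbd fell 4.51-fold in PDGF-NS against LH-NS (log2 change -1.87 ± 0.40, adjusted p = 0.006). With a pseudocount of 5 in place of 1 this log2 change was -1.24. It was 9.73-fold lower in PDGF-NS than in IGF-NS (-3.02 ± 0.40, adjusted p = 0.00075), and its mean level was above 17.3% of tested genes in PDGF-NS and 75.3% in IGF-NS, against 57.6% in LH-NS. Without library 1 of PDGF-NS, the highest of its set, the means of Thbd in PDGF-NS were 7.02-fold below LH-NS and 15.2-fold below IGF-NS. In IGF-NS against LH-NS its log2 change of 1.15 ± 0.40 was not called (adjusted p = 0.062). Without library 1 of LH-NS that change was 1.55 and called (adjusted p = 0.015). Its adjusted p was 0.043 without library 1 of PDGF-NS, which enters through the shared fit, the limit on low values and the p adjustment. With a pseudocount of 5 the change in IGF-NS was 0.96 and called (adjusted p = 0.04). With the replicate number as a block it was called as well (adjusted p = 0.0078).

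Thrombomodulin is best known from endothelium, and endothelial markers were low. Their summed level lay between 1.77 and 4.32 FPKM in IGF-NS and between 3.98 and 6.51 FPKM in PDGF-NS, against 7.74 to 9.19 FPKM in LH-NS, most of it Erg. Erg, a transcription factor of endothelial cells, was the only 1 of 10 markers tested and was called lower in IGF-NS than in LH-NS (log2 change -1.24, adjusted p = 0.0091). In PDGF-NS it was below LH-NS in every library and not called (-0.64, adjusted p = 0.098). The part of these cells in the Thbd values was not tested. The defining markers Cdh5, Kdr, Emcn and Cldn5 were listed at 0 in all 9 libraries. Platelet markers summed to at most 0.732 FPKM in any library, with Gp1ba, Pf4 and Ppbp listed at 0 throughout.

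F3 (ENSRNOG00000011800), the starter of the coagulation cascade, had 22.8, 50.5 and 51.0 FPKM in IGF-NS and 49.1, 27.0 and 30.7 FPKM in PDGF-NS, against 21.5, 75.6 and 98.5 FPKM in LH-NS. The LH-NS libraries spanned 4.58-fold, the widest span of any tested member in any set, and library 1 of LH-NS was the lowest of all 9. The log2 changes were -0.47 ± 0.51 in IGF-NS against LH-NS (adjusted p = 0.54), -0.65 ± 0.51 in PDGF-NS against LH-NS (adjusted p = 0.37) and -0.17 ± 0.51 in PDGF-NS against IGF-NS (adjusted p = 0.87). Without library 1 of LH-NS the change in PDGF-NS was -1.30 and called (adjusted p = 0.024), and the change in IGF-NS was -1.13 and not called (adjusted p = 0.05). Without library 3 of LH-NS the same changes were -0.23 (adjusted p = 0.77) and -0.05 (adjusted p = 0.95).

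Tfpi (ENSRNOG00000005039), which shuts off tissue factor once coagulation has begun, had 17.0, 24.9 and 18.6 FPKM in IGF-NS and 18.6, 14.6 and 17.0 FPKM in PDGF-NS, against 5.92, 11.3 and 19.7 FPKM in LH-NS. Library 3 of LH-NS lay among the libraries of IGF-NS and above all of PDGF-NS, and the other LH-NS libraries lay below both sets. The log2 change was 0.79 ± 0.33 in IGF-NS against LH-NS (adjusted p = 0.11), 0.55 ± 0.33 in PDGF-NS against LH-NS (adjusted p = 0.23) and -0.24 ± 0.33 in PDGF-NS against IGF-NS (adjusted p = 0.68). Without library 3 of LH-NS the first was 1.18 (adjusted p = 0.015) and the second 0.94 (adjusted p = 0.025), both called. Without library 1 of LH-NS they were 0.39 (adjusted p = 0.28) and 0.14 (adjusted p = 0.69).

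**Figure D3:**
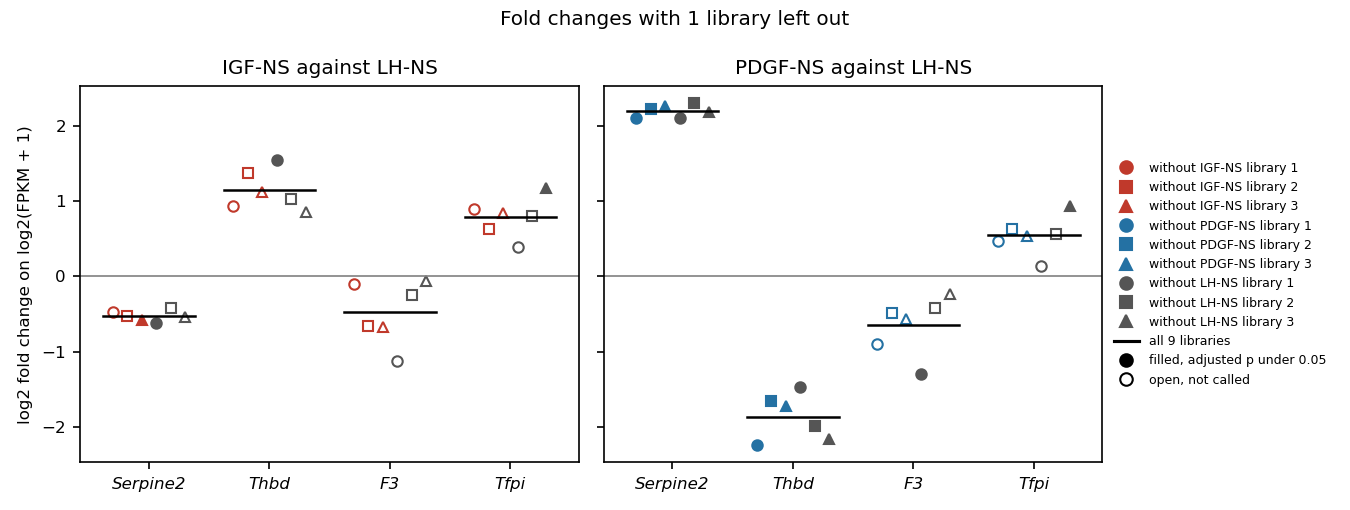
Log2 fold changes on the log2(FPKM + 1) scale against LH-NS of 4 members with 1 library of the compared sets left out at a time; lines show the value from all 9 libraries and filled points have an adjusted p under 0.05. F3 and Tfpi are called only without 1 LH-NS library, while Serpine2 and Thbd stay called in PDGF-NS whichever library is left out.

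Ratios between members that act at the same step were taken within each library, which removes scaling between libraries; they describe unequal levels and carry no test. Plat over Serpine2 lay between 0.492 and 0.748 in IGF-NS and between 0.187 and 0.261 in PDGF-NS, against 0.236 to 0.250 in LH-NS. Thbd over F2r lay between 0.152 and 0.259 in IGF-NS and between 0.0164 and 0.0426 in PDGF-NS, against 0.0211 to 0.0652 in LH-NS. For both, IGF-NS was above the other two sets in every library, and PDGF-NS overlapped LH-NS. F3 over Tfpi lay between 1.34 and 2.74 in IGF-NS and between 1.81 and 2.63 in PDGF-NS, against 3.63 to 6.70 in LH-NS. Here both sets lay below every LH-NS library. Neither F3 nor Tfpi was called with all libraries in the fit. How often ratios of other pairs of genes separate the sets in this way was not examined.

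**Figure D4:**
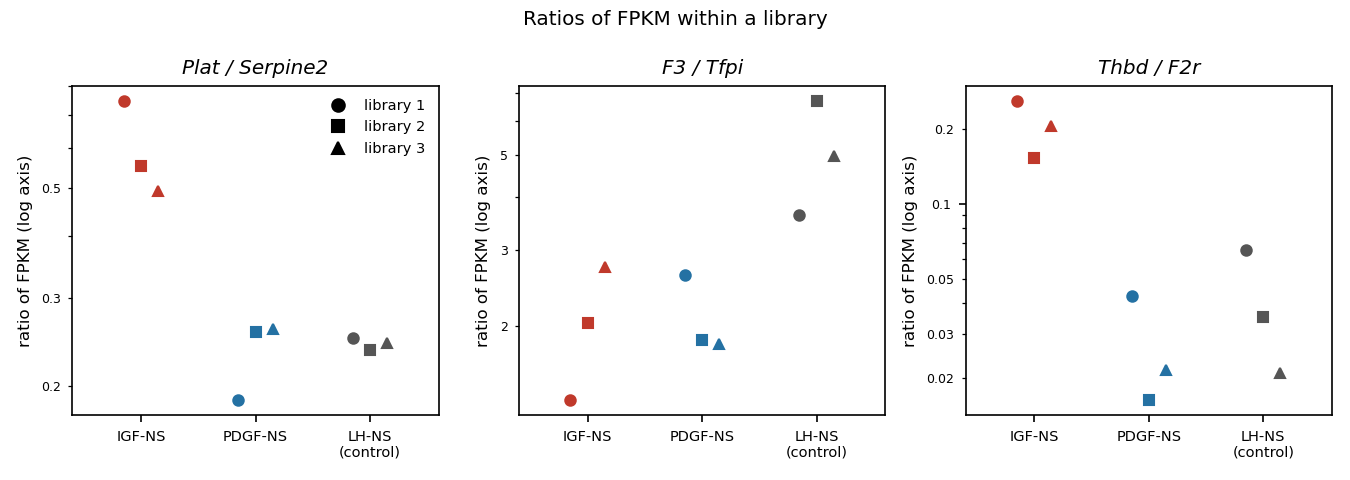
Ratios of FPKM between paired genes within each library, on log axes, with IGF-NS and PDGF-NS left of LH-NS. Plat over Serpine2 and Thbd over F2r are highest in IGF-NS, at 0.492 to 0.748 and 0.152 to 0.259, and F3 over Tfpi is highest in LH-NS, at 3.63 to 6.70.

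A wider list of 35 plasminogen and coagulation genes set the members beside their pathway. A row was found for 34, of which 12 were tested, 22 were under the limit and 11 of those 22 were listed at 0 in every library, among them the factors F7, F9, F10, F11, F12 and F13a1. Of the 12 tested, 1 was called higher and 11 were not called in IGF-NS against LH-NS, 5 were called higher and 7 not called in PDGF-NS against LH-NS, and 4 were called higher and 8 not called in PDGF-NS against IGF-NS. Of all tested genes 17.4%, 20.7% and 8.33% were called higher in these comparisons in that order. The median log2 change of the 12 was 0.23, 0.42 and 0.31, and that of all tested genes 0.15, 0.13 and -0.02. This list too was chosen with earlier results of these data known.

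Serpini1, which encodes neuroserpin, a serpin of tissue-type plasminogen activator, had 22.1, 27.6 and 20.4 FPKM in PDGF-NS, against 1.66, 3.08 and 2.80 FPKM in LH-NS. It rose 9.29-fold in PDGF-NS over LH-NS (log2 change 2.81 ± 0.21, or 1.91 with a pseudocount of 5, adjusted p = 1.5e-05 and 8.2e-06). It was 5.85-fold higher in PDGF-NS than in IGF-NS, where it had 5.19, 3.24 and 3.53 FPKM (2.30 ± 0.21, adjusted p = 9e-05). Serpine2 and Serpini1, both serpins that act on tissue-type plasminogen activator, were thus both called higher in PDGF-NS than in either other set.

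Of the protein C pathway, Procr, the receptor that presents protein C to the thrombin and thrombomodulin complex, rose 4.59-fold in PDGF-NS over LH-NS, with a mean of 6.72 ± 1.32 FPKM in PDGF-NS, against 1.46 ± 0.28 FPKM in LH-NS (log2 change 1.64 ± 0.18, or 0.85 with a pseudocount of 5, adjusted p = 0.00012). It was also higher in PDGF-NS than in IGF-NS (1.32 ± 0.18, or 0.73 with a pseudocount of 5, adjusted p = 8e-04 and 6e-04). Pros1, which encodes protein S, a cofactor of activated protein C and of Tfpi, rose in IGF-NS (0.91 ± 0.21, adjusted p = 0.011) and in PDGF-NS (1.63 ± 0.21, adjusted p = 0.00031) over LH-NS, with means of 29.6 ± 5.18 FPKM in IGF-NS and 49.2 ± 5.58 FPKM in PDGF-NS, against 15.6 ± 4.38 FPKM in LH-NS. Its difference between PDGF-NS and IGF-NS (0.72 ± 0.21, adjusted p = 0.042) was not called when any of the 3 PDGF-NS libraries was left out (adjusted p 0.073 to 0.15), nor without library 1 (0.15) or 2 (0.086) of IGF-NS, library 3 of LH-NS (0.053), after scaling to one common sum (0.062), with no limit on low values (0.066) or with no variance trend (0.05).

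Of the plasminogen-binding proteins, S100a10, the partner of annexin A2, rose in PDGF-NS over LH-NS with a mean of 528 ± 76.6 FPKM in PDGF-NS, against 246 ± 73.2 FPKM in LH-NS (log2 change 1.13 ± 0.21, adjusted p = 0.0025). Eno1, a glycolytic enzyme that also binds plasminogen, had 33.0, 63.2 and 58.7 FPKM in PDGF-NS, against 24.0, 31.4 and 32.5 FPKM in LH-NS, and was called higher (0.76 ± 0.24, adjusted p = 0.036). That call was lost without any one of the 3 LH-NS libraries (adjusted p 0.052 to 0.1), without library 2 or 3 of PDGF-NS (0.13 each), after each of the 3 scalings (0.055 to 0.057), with no limit on low values (0.061) and with only the 2 compared sets in the fit (0.055). Eno1 was 2.59-fold higher in PDGF-NS than in IGF-NS (1.29 ± 0.24, adjusted p = 0.0049). Anxa2 itself was not called in any comparison, with log2 changes of -0.25 in IGF-NS against LH-NS and -0.03 in PDGF-NS against LH-NS. F2rl1, another receptor opened by proteases, had log2 changes of -0.76 (adjusted p = 0.16) in IGF-NS and -0.67 (adjusted p = 0.19) in PDGF-NS against LH-NS, neither called.

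**Figure D5:**
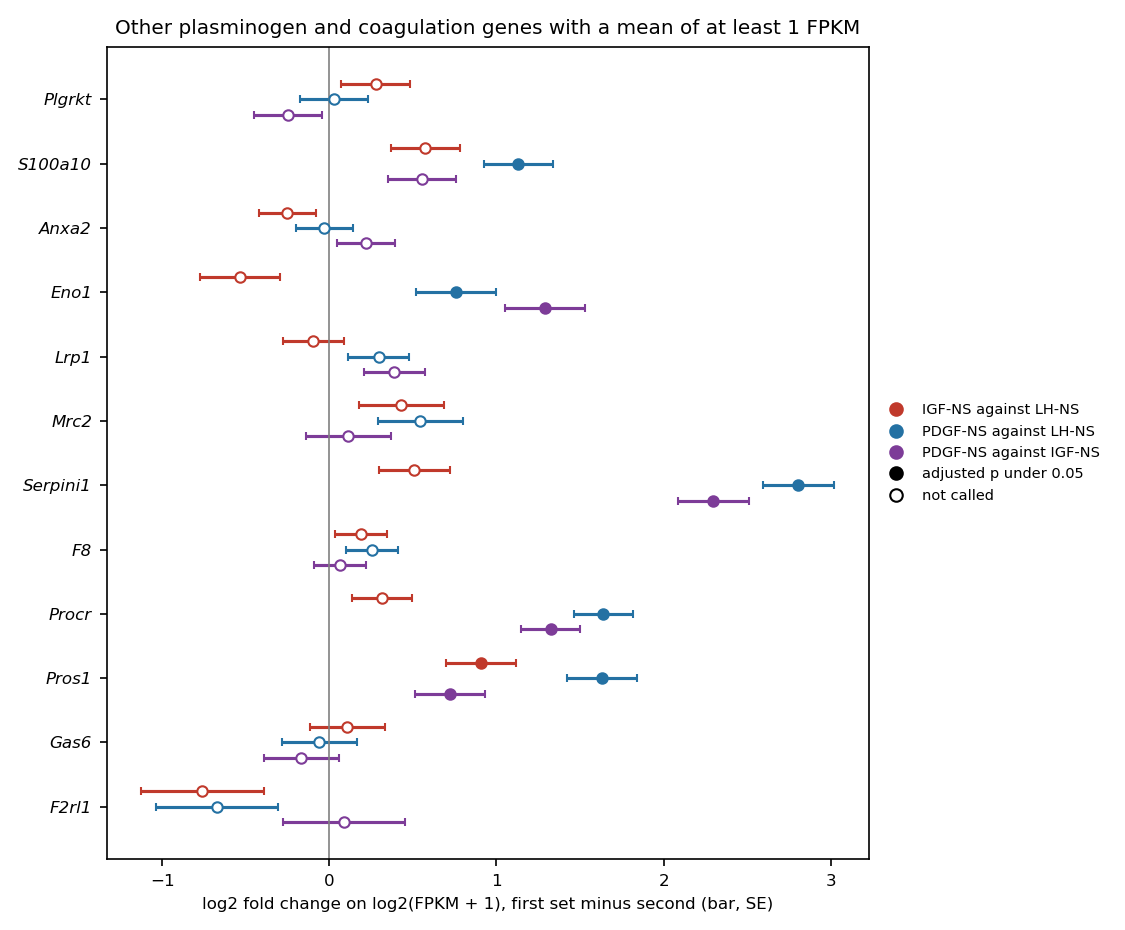
Log2 fold changes on the log2(FPKM + 1) scale of the 12 tested genes of the wider list in the 3 comparisons, first-named set minus second, with SE bars; filled points have an adjusted p under 0.05. Serpini1 lies farthest above 0 in PDGF-NS against LH-NS, at 2.81, and Procr and Pros1 follow at 1.64 and 1.63. The order after Serpini1 depends on the added 1. With a pseudocount of 5, not drawn, Serpini1 is at 1.91, Pros1 at 1.42, S100a10 at 1.12 and Procr at 0.85.

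The genes whose profiles over the 9 libraries were most like each member's were found by the root mean square difference of log2(FPKM + 1) after centring each gene on its mean. For Plat they were Plin2 at 0.13 and St3gal4 at 0.15 log2 units, where Plat's own profile had a root mean square of 0.88. For Serpine2 they were Mcoln3 at 0.16 and Pcp4l1 at 0.23, and for F2r Fstl3 and Sync, both at 0.17. Mcoln3 had 9.51, 7.09 and 6.53 FPKM in PDGF-NS and was under 1 FPKM in every other library. The added 1 thus shrinks its changes more than those of Serpine2. Pkig at 0.18 and Hspb1 at 0.21 were nearest to Plaur. Hspb1, a small heat shock protein, had 132, 147 and 212 FPKM in IGF-NS and 530.0, 610.1 and 726 FPKM in PDGF-NS, against 471, 428 and 647 FPKM in LH-NS. The nearest genes to Thbd lay farther away in log2 units, Mfrp and Kif26b both at 0.40. So did those to F3, Cgnl1 at 0.27 and Akap5 at 0.28. The own root mean square was 1.34 for Thbd and 0.71 for F3. Mfrp had 0, 0.156 and 0.0441 FPKM in PDGF-NS, so its changes are understated as well. Tfpi had Mrps22 at 0.18 and Mrpl50 at 0.19, against an own root mean square of 0.52.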

How the data were processed

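Values are FPKM per gene and library as deposited by the authors. Trizol was used to extract the RNA and the Lexogen SENSE mRNA kit (v2) to build libraries, per the labels' protocols, and GSNAP and Cufflinks are named in the submitters' processing notes; for versions, genome build and annotation, none is given in the sources used here. Since FPKM are no counts, a count model was not used, and the reads behind a value are unknown; the number of libraries, 3 a set, limits the precision. FPKM summed to 616765 to 748000 a library, with 11047 to 11348 genes at 1 FPKM or more. Left out were 4 genes whose rows held the value 999999999 and 2 copies of duplicated rows at 0; 5795 rows had no symbol. log2(FPKM + 1) of the 11376 genes averaging 1 FPKM or more was tested with limma 3.58.1 (trend, R 4.3.3), all 9 libraries in one fit, Benjamini-Hochberg adjusted; the code was tested on simulated data. Columns were assigned by the column name in each record. The members and the lists of pathway and marker genes were chosen with earlier results of these data known. All 8 members were described; of the wider list, up to 6 called genes with the largest change per comparison were named, and for each tested member its 2 nearest profiles. Promoters came from RefSeq (GRCr8), matched by symbol for 5 of 8 members. The Ensembl identifiers of the members were not found in the RefSeq entries of the same symbols, so the match rests on the symbol alone. Alternatives were other pseudocounts, limits, scalings, fits and each library left out. Reads shared by near-identical or overlapping genes could have been split in counting, which was not examined. One gene of the wider list is not reported here.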

Additional observations from a re-analysis of the deposited data

Results flagged for a closer look

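The effects against LH-NS in the PDGF-NS and IGF-NS sets had opposite signs for 3 members, and the difference itself was called by limma. The difference of effects, PDGF-NS minus IGF-NS on the log2(FPKM + 1) scale, was 1.7201 for Plaur (0.4122 in PDGF-NS and -1.3078 in IGF-NS, adjusted p = 0.00048), 2.7213 for Serpine2 (2.1996 in PDGF-NS and -0.5216 in IGF-NS, adjusted p = 3.4e-06) and -3.0215 for Thbd (-1.8741 in PDGF-NS and 1.1473 in IGF-NS, adjusted p = 0.00075). All 3 PDGF-NS libraries lay above all 3 IGF-NS libraries for Plaur and Serpine2, and below them for Thbd. Against LH-NS, the effect of Plaur in PDGF-NS and that of Thbd in IGF-NS were not called by themselves. That of Serpine2 in IGF-NS was called (adjusted p = 0.023). It lost its call in some fits with 1 library left out (adjusted p up to 0.089). By the records these sets differ in harvest time as well as in growth factor, and these cannot be told apart.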

How the results depend on the processing

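Over other pseudocounts, limits on low values, scalings, fits and single libraries left out, the number of members called stayed at 3 to 5 in IGF-NS against LH-NS and 4 to 5 in PDGF-NS against LH-NS and PDGF-NS against IGF-NS. Over all genes, calls numbered 1752 to 2957 in IGF-NS against LH-NS with 1 library left out, the lowest without library 1 of IGF-NS, and 1009 to 2152 in PDGF-NS against IGF-NS, the lowest without library 3 of PDGF-NS and 1193 without library 2. The log2 difference of F3 between PDGF-NS and IGF-NS, not called, ranged over -0.5473 to 0.0163 with 1 library left out, turning to 0.009 without library 2 and 0.0163 without library 3 of IGF-NS. With the replicate number as a replicate block, 2457, 3221 and 1530 genes were called in IGF-NS against LH-NS, PDGF-NS against LH-NS and PDGF-NS against IGF-NS, and Thbd was called in the first (adjusted p = 0.0078). The labels do not say that a number marks a shared culture, so the numbers were not taken as pairs. Over all tested genes, the deviations of same-numbered libraries from their set means had correlations of -0.276 to 0.253. Correlations over all genes cannot show whether a single gene varied with the number. Thbd was highest in library 1 of every set, at 44.4 FPKM in IGF-NS, 6.03 FPKM in PDGF-NS and 26.1 FPKM in LH-NS. Different-numbered libraries ranged from -0.513 (LH-NS library 1 with IGF-NS library 2) to 0.407 (LH-NS library 3 with IGF-NS library 2). Pairing under other numbers was not tested. The cause of these changes was not tested. The number of reads is unknown. Relative depth, estimated from the lowest values with LH-NS library 1 set to 1, ran from 0.663 in LH-NS library 2 to 1.41 in PDGF-NS library 2. Low values such as those of Plau thus carry an error that is not known and may differ between libraries.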

Other observations

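Plg, which encodes plasminogen itself, was under 1 FPKM in every library but separated the sets: it had 0.383, 0.481 and 0.371 FPKM in IGF-NS and 0.228, 0.337 and 0.242 FPKM in PDGF-NS, against 0.0433, 0.0655 and 0.168 FPKM in LH-NS. In the limma fit with no limit on low values, its log2(FPKM + 1) change was 0.37 ± 0.07 in IGF-NS (adjusted p = 0.008) and 0.22 ± 0.07 in PDGF-NS (adjusted p = 0.05) against LH-NS, the second not called. Between PDGF-NS and IGF-NS the Plg values did not overlap, but the change of -0.15 ± 0.07 was not called either (adjusted p = 0.2). The error of values this low is not known. F2rl2, another member of the protease-activated receptor family, had 0.376, 0.255 and 0.286 FPKM in PDGF-NS, against 1.29, 2.70 and 1.00 FPKM in IGF-NS, a log2 change of -0.98 ± 0.23 in the same fit (adjusted p = 0.029). Both genes were singled out after their values were seen.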
